A study of Mus musculus with 7 samples.

Results

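The 37 genes of the mouse mitochondrial genome were read in bulk RNA-seq libraries of 2 genetic models of glioblastoma (GBM). Members were all rows of the deposited count table whose gene name starts with mt-, which gave 13 protein genes, 2 rRNA genes and 22 tRNA genes among 49492 genes. The first model, NPCTKO, had 4 libraries of EGFP+ or DsRed+ GBM cells sorted by flow cytometry from tumors raised by in utero electroporation of embryonic neural precursors with Cas9 and guides to tumor suppressor genes, Trp53 and Nf1 among them, on a piggyBac cassette. The second model, NSCHRas-shp53, had 3 libraries of whole, unsorted GBM tissue from adult mice whose subventricular zone received a lentivirus with a Trp53 shRNA and constitutively active human HRAS. All 7 libraries were labelled C57BL/6, 3 months of age and GBM. There was no normal brain library, and the labels do not say whether each library came from its own mouse, so p-values measure the spread between libraries only. Sorting was done in one model only, so the effects of the model and of sorting cannot be told apart.

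Mitochondrial DNA is a small circle that is transcribed from both strands as long precursors, by the polymerase POLRMT with TFAM and TFB2M. The precursors are cut at the tRNAs, which lie between the other genes, and most mRNAs and both rRNAs receive short poly(A) tails. The protein genes encode core subunits of complex I (the Nd genes), of complex III (Cytb), of complex IV (Co1 to Co3) and of the ATP synthase (Atp6, Atp8), and every other protein that the organelle needs is encoded in the nucleus. Mitochondrial RNA is abundant in brain.

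The libraries held between 15002873 and 19840860 counts each, and 3 counts, taken as the floor of detection for counting error only, correspond to at most 0.234 CPM (counts scaled by library total and TMM factor) in any of them. Marker genes of several cell types moved with the model. The paper reports GFAP in some NPCTKO tumor cells and an astrocyte-like state in NSCHRas-shp53 tumors, so the astrocyte list does not mark non-tumor cells only. The astrocyte list took 0.0209 to 0.0676% of counts in NPCTKO and 0.303 to 0.379% in NSCHRas-shp53 libraries (8 genes, Gfap at 0 counts but at 19.1 to 86.9 and 716 to 1096 FPKM), the neuron list 0.00267 to 0.00913% and 0.0641 to 0.0842% (10 genes, Nefl at 0), the endothelial list 0.00316 to 0.0181% and 0.0449 to 0.0811% (6 genes, none at 0), and the mural and fibroblast list 0.00420 to 0.00898% and 0.0485 to 0.102% (6 genes, none at 0). The list of tumor and precursor genes went the other way as a sum, with 0.258 to 0.414% in NPCTKO and 0.0653 to 0.102% in NSCHRas-shp53 (7 genes, Sox2 at 0 counts although it had FPKM values in every library). In FPKM, Olig1, Olig2 and Sox10 of this list were lower in every NSCHRas-shp53 library than in any NPCTKO library. Sox2 (71.0 to 133.9 and 51.1 to 111.5 FPKM) and Egfr (1.71 to 9.45 and 7.19 to 11.4 FPKM) overlapped. The sum does not measure the share of tumor cells. The tumor-associated macrophage (TAM) list took 1.43, 1.78, 0.0570 and 0.419% in NPCTKO libraries 1 to 4 (10 genes, P2ry12 at 0) and 0.292 to 0.746% in NSCHRas-shp53 libraries. The oligodendrocyte list took 0.0906 to 0.441% and 0.117 to 0.761% (6 genes, none at 0) and the immediate early genes 0.331 to 1.10% and 0.0755 to 0.530% (10 genes, none at 0), both with overlap. NPCTKO libraries 1 and 2 also stood apart from 3 and 4 in the GC content of what they read, with a rank correlation between a gene's deviation and its transcript GC of 0.557 and 0.480 against -0.372 and -0.359, over 15647 genes that are not independent replicates. Their part in the results below was not tested, except where a value without those libraries is given.

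Sequences are shown first for a stretch of the mitochondrial genome of which long pieces stand almost letter for letter in the nuclear genome, because reads that fall wholly inside an identical piece cannot be placed by their sequence. In the annotated transcripts of GENCODE vM21 (mm10), from which the sequences were read, 7 pseudogenes on chromosome 1 lie side by side on the minus strand between 24611535 and 24616197 and match pieces of mitochondrial positions 6390 to 11042, a stretch of 4653 bases. The pieces add up to 4140 aligned bases, with 2 mismatches. Within the ends of the stretch lie 11 whole genes, of which 6 encode proteins (mt-Co2, mt-Atp8, mt-Atp6, mt-Co3, mt-Nd3 and mt-Nd4l) and 5 encode tRNAs, together with the end of mt-Co1 and the first part of mt-Nd4. No annotated transcript of the copy covers the 5 tRNA genes or mt-Atp8 outside its overlap with mt-Atp6, so these are placed in the stretch by position alone and their match to chromosome 1 was not tested. The 3 pairs below show the start of an identical pair and both mismatches, the mismatched base in capitals. Positions count from 1 at the 5′ end of the mitochondrial gene.
mt-Co2 (chrM:7013-7072, plus strand): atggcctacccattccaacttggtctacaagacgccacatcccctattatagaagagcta
Gm28661 (chr1:24615506-24615565, minus strand): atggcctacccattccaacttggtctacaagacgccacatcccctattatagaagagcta
mt-Co1 (chrM:6363-6423, plus strand): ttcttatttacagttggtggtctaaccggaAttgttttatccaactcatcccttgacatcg
Gm29216 (chr1:24616155-24616197, minus strand): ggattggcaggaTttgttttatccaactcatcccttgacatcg
mt-Nd3 (chrM:9459-9491, plus strand): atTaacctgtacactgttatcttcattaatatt
Gm28438 (chr1:24613087-24613119, minus strand): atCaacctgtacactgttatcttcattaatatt
The mismatches are A1066T in mt-Co1, next to the point where its copy begins, and T3C in mt-Nd3. The first 9 bases of Gm29216 lie outside the match. All other aligned bases of mt-Co2, mt-Atp6, mt-Co3, mt-Nd4l and mt-Nd4 were identical to the copy. Of all windows of 150 bases, the read length per the labels, 99.4% of those in mt-Co2, 99.4% in mt-Atp6, 99.8% in mt-Co3, 97.0% in mt-Nd3 and 98.0% in mt-Nd4l occur in the copy as well, against 59.2% in mt-Nd4 and 23.6% in mt-Co1.

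The 3 tRNA genes with a mean of at least 100 counts are the other sequences shown, since they carry most of what was read from tRNA genes. All lie on the light strand and are written 5′ to 3′ on that strand, with the anticodon in capitals.
mt-Tn (asparagine, chrM:5089-5159): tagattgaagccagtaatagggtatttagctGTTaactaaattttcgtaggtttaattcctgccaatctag
mt-Tc (cysteine, chrM:5192-5257): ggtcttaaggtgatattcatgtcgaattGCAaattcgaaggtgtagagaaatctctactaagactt
mt-Tp (proline, chrM:15356-15422): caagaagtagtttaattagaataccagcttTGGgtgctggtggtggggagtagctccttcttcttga
At 59 to 75 bases, every mitochondrial tRNA gene is shorter than a read.

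As a share of all counts, mitochondrial genes took more of each NSCHRas-shp53 library than of any NPCTKO library, in all 3 classes. The 37 genes together took 0.783, 0.411, 1.15 and 0.929% of the counts of NPCTKO libraries 1 to 4 and 5.39, 4.19 and 1.79% of NSCHRas-shp53 libraries 1 to 3 (0.819% ± 0.311, SD, n = 4, and 3.79% ± 1.83, SD, n = 3). The groups did not overlap, although NSCHRas-shp53 library 3 lay nearer to the highest NPCTKO library than to its own group's highest. At this depth counting error is small: the exact 95% binomial interval of the lowest share, in NPCTKO library 2, runs from 0.408 to 0.415%. In these bulk libraries, fewer cells of a type and less RNA per cell cannot be told apart.

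Protein genes made up 97.4, 96.1, 97.9 and 97.9% of the mitochondrial counts in NPCTKO and 83.2, 94.9 and 93.0% in NSCHRas-shp53 libraries. Of all counts they took 0.763, 0.395, 1.13 and 0.909% of counts in NPCTKO and 4.48, 3.97 and 1.66% in NSCHRas-shp53 libraries. The rRNA genes, whose products form the mitochondrial ribosome, took 0.0176, 0.0146, 0.0214 and 0.0174% in NPCTKO and 0.891, 0.205 and 0.120% in NSCHRas-shp53. NPCTKO libraries lay close together in rRNA while NSCHRas-shp53 libraries were spread widely, with library 1 far above libraries 2 and 3. Per 100 counts of protein genes, there were 2.30, 3.70, 1.90 and 1.91 counts of rRNA genes in NPCTKO and 19.9, 5.17 and 7.22 in NSCHRas-shp53 libraries, again with no overlap. The rRNAs were read after selection of poly(A) RNA, so these counts are not the amount of rRNA in the cells. The tRNA genes took 0.00163 to 0.00295% in NPCTKO and 0.00522 to 0.0136% in NSCHRas-shp53. Relative to protein genes the tRNA counts overlapped, with 2.05 to 4.12 per 1000 protein counts in NPCTKO and 1.83 to 3.14 in NSCHRas-shp53.

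**Figure D1:**
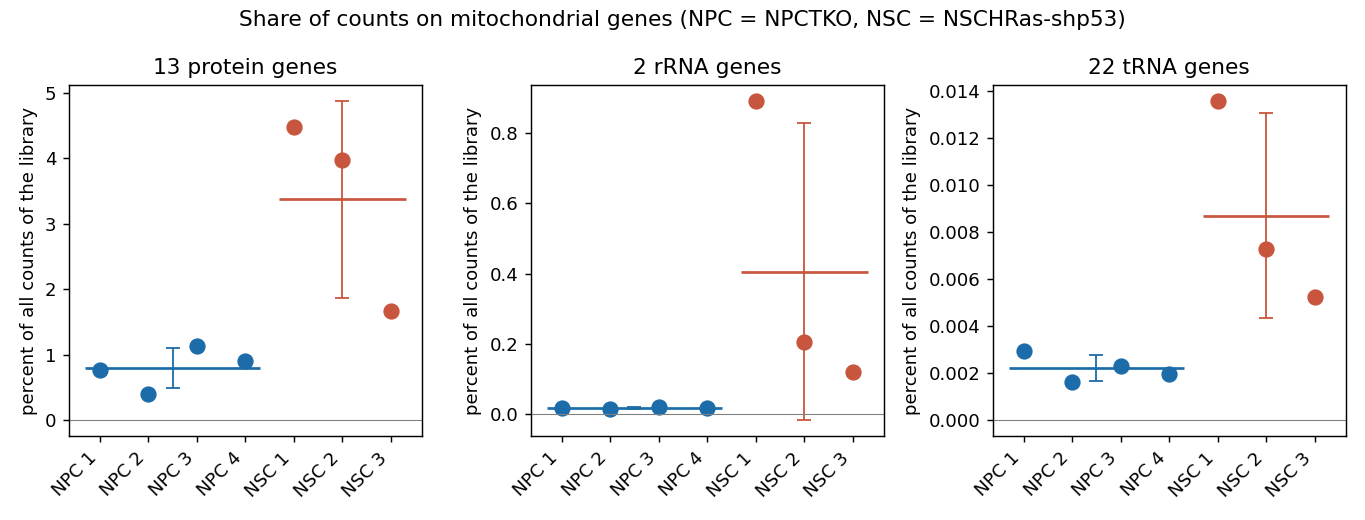
Percent of each library's counts on the 13 protein, 2 rRNA and 22 tRNA genes of the mitochondrial genome, with a point per library, lines at the group means and bars of ± SD (NPCTKO n = 4, NSCHRas-shp53 n = 3). All 3 NSCHRas-shp53 libraries lie above all 4 NPCTKO libraries in each panel, from 1.66 against at most 1.13% for protein genes, and library 1 carries the rRNA mean.

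Of the 37 genes, 27 had enough counts for the test of single genes (edgeR's quasi-likelihood test over 16091 genes with Benjamini-Hochberg adjustment), among them all protein and rRNA genes and 12 of 22 tRNA genes. Between the models 16 passed an adjusted p of 0.05, all higher in NSCHRas-shp53, and none was lower. Over all genes tested, 7.77% were called higher and 5.28% lower. Of the 16, 8 were protein genes, 2 rRNA genes and 6 tRNA genes. Among these, mt-Tg, mt-Tr, mt-Th, mt-Ts2 and mt-Te passed the filter on low counts only through NSCHRas-shp53, so a lower call was hardly possible for them. Of the genes not called, mt-Tl1, mt-Tl2 and mt-Tw would not have passed that filter on the NPCTKO libraries alone. No fitted value of the 27 was below 0, so an unadjusted p under 0.05 called 0 lower as well and 20 higher. Over all genes it held for 4881 of 16091 in either direction. DESeq2 called 21 of the 27 higher and 0 lower, beside 2024 and 1922 of 16091 over all genes. The median log2 fold change of the 13 protein genes was 2.58, beside -0.10 over all genes tested. Fewer were called higher when an NSCHRas-shp53 library was left out. There were 6 without library 1, 3 without library 2 (mt-Rnr1, mt-Rnr2 and mt-Nd3) and 10 without library 3. Over all genes tested, those called higher also fell, from 1251 of 16091 to 704 of 16738, 459 of 16637 and 415 of 16521. Without NPCTKO libraries 1 and 2 together 12 were called (1488 of 16631 over all genes). After each library's trend with transcript GC was removed, 8 were called (1546 of 15674), and 22 of 27 fitted values stayed above 0.

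**Figure D2:**
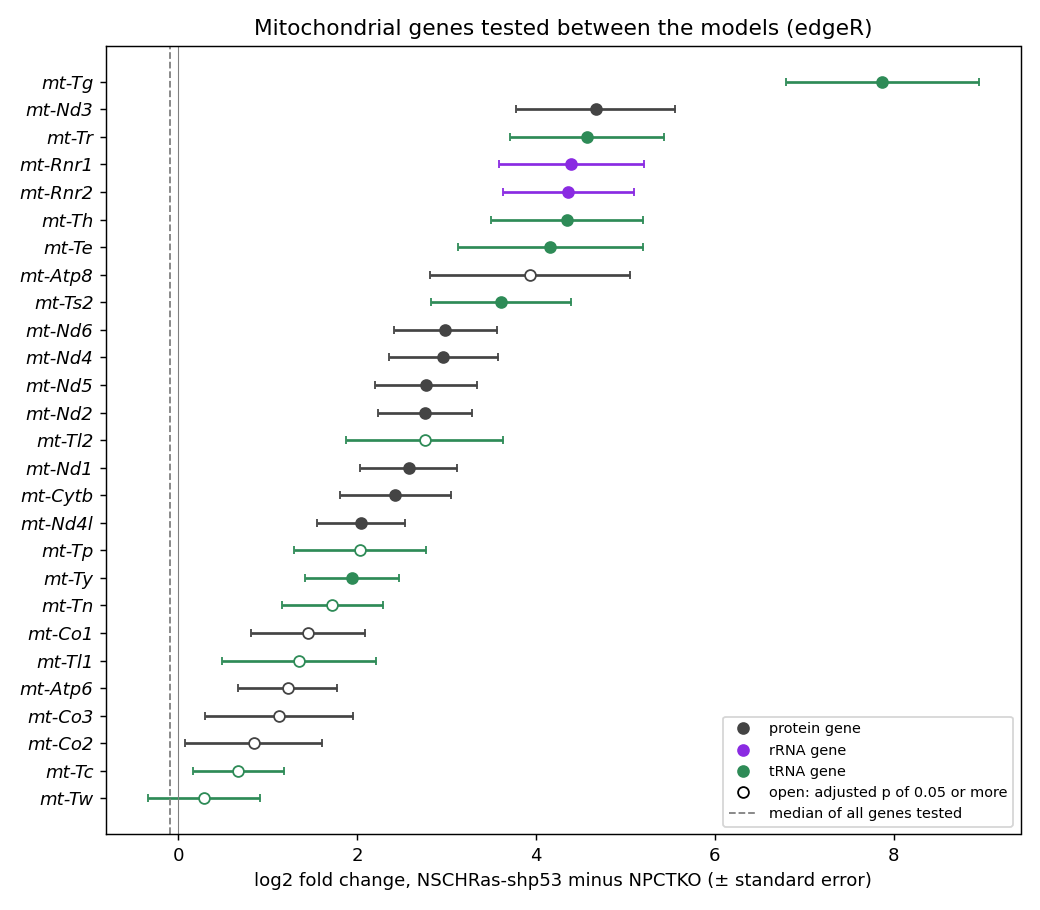
Log2 fold change of each of the 27 tested mitochondrial genes, NSCHRas-shp53 minus NPCTKO, with its standard error (edgeR, 3 against 4 libraries). Filled points passed an adjusted p of 0.05. All points lie above 0 and above the dashed median of all genes (-0.10), and the value of mt-Tg, at 0 in every NPCTKO library, depends on the prior count. mt-Tg, mt-Tr, mt-Th, mt-Ts2 and mt-Te passed the filter on low counts only through NSCHRas-shp53. mt-Tl1, mt-Tl2 and mt-Tw would not have passed it on the NPCTKO libraries alone.

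The rRNA genes had large differences that stood in nearly all alternatives. mt-Rnr1, the 12S rRNA of the small ribosomal subunit, was read at 123, 90.3, 63.1 and 53.1 CPM in NPCTKO and at 3991, 784 and 417 CPM in NSCHRas-shp53 libraries. mt-Rnr2, the 16S rRNA of the large subunit, was read at 105, 101, 120.0 and 105 CPM in NPCTKO and at 4988, 1043 and 612 CPM in NSCHRas-shp53. For both genes, every NSCHRas-shp53 library was above every NPCTKO library by more than 3-fold. mt-Rnr1 rose by 4.39 ± 0.81 on the log2 scale (standard error, edgeR adjusted p = 0.0132, from 8.4e-08 to 0.0944 over 17 alternatives) and mt-Rnr2 by 4.36 ± 0.74 (edgeR adjusted p = 0.0100, from 4.2e-09 to 0.0492). mt-Rnr2 passed the threshold in all 17 and mt-Rnr1 in 16, the exception being the fit with the GC trend removed. Without NSCHRas-shp53 library 1, which held most of their counts, both were still called. Neither has a near-identical annotated nuclear copy in the transcripts searched.

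Of the complex I genes, all 7 were higher in every NSCHRas-shp53 library than in any NPCTKO library, and all 7 were called. For 16.3% of the genes tested, the CPM of all NSCHRas-shp53 libraries lay above those of all NPCTKO libraries. mt-Nd1, which with mt-Nd2, mt-Nd4 and mt-Nd5 forms most of the membrane arm that pumps protons, was read at 609, 437, 788 and 429 CPM in NPCTKO and at 5597, 3034 and 1485 CPM in NSCHRas-shp53. mt-Nd2 was read at 301, 220.4, 499.6 and 275 CPM and at 3354, 2218 and 997 CPM. In both, library 1 of NSCHRas-shp53 was highest and library 3 lowest. The changes were 2.58 ± 0.54 for mt-Nd1 and 2.76 ± 0.52 for mt-Nd2 on the log2 scale (edgeR adjusted p = 0.0205 and 0.0145). mt-Nd2 lost its call without NSCHRas-shp53 library 2, and mt-Nd1 without NPCTKO library 1 or 2, without both together, or without NSCHRas-shp53 library 1 or 2. With the GC trend removed neither was called (2.58 and 2.76 became 1.62 and 1.74, edgeR adjusted p = 0.146 and 0.106).

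mt-Nd4, mt-Nd5 and mt-Nd6 showed a second split, inside NPCTKO. mt-Nd4 was read at 185, 129.9, 502 and 307 CPM in NPCTKO libraries 1 to 4 and at 3153, 2434 and 989 CPM in NSCHRas-shp53. mt-Nd5 was read at 229.6, 164, 563 and 437 CPM and at 2178, 3573 and 1359 CPM. mt-Nd6, the only protein gene on the light strand, was read at 42.4, 35.1, 127 and 105 CPM and at 498, 979 and 362 CPM. NPCTKO libraries 3 and 4 were above libraries 1 and 2 in all 3 genes. The log2 fold changes were 2.96 ± 0.61 for mt-Nd4, 2.77 ± 0.57 for mt-Nd5 and 2.98 ± 0.58 for mt-Nd6 (edgeR adjusted p = 0.0188, 0.0189 and 0.0153). All 3 stayed called without NPCTKO libraries 1 and 2, while mt-Nd4 and mt-Nd5 lost their calls without NSCHRas-shp53 library 1 or 2 and mt-Nd6 without library 2. The library kit did not keep strand, so counts of mt-Nd6 also hold any RNA read from the opposite strand, and it shares 14 bases with mt-Nd5. Per count of mt-Cytb there were 0.0604, 0.0738, 0.0772 and 0.0905 counts of mt-Nd6 in NPCTKO and 0.0658, 0.161 and 0.150 in NSCHRas-shp53, which overlapped.

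The 2 short complex I genes lie inside the copied stretch. mt-Nd3 was read at 4.64, 2.42, 2.19 and 0.363 CPM in NPCTKO and at 124, 40.2 and 18.9 CPM in NSCHRas-shp53. Its fitted change was 4.67 ± 0.89 on the log2 scale (edgeR adjusted p = 0.0145), from counts that leave out its copy Gm28438, which took 50.0 to 80.0% of the pair's counts in NPCTKO and 0.657 to 1.36% in NSCHRas-shp53. mt-Nd4l was read at 2.49, 3.28, 8.34 and 3.51 CPM and at 13.3, 21.4 and 19.9 CPM, a change of 2.04 ± 0.49 (edgeR adjusted p = 0.0321) that lost its call when any library except NPCTKO library 3 was left out. For mt-Nd3 the call stood in 16 of 17 alternatives and was lost with the GC trend removed (highest adjusted p 0.141).

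mt-Cytb, the mitochondrial subunit of complex III, was read at 702, 475, 1649 and 1163 CPM in NPCTKO and at 7558, 6081 and 2411 CPM in NSCHRas-shp53 (997 ± 520.1, SD, n = 4, and 5350.1 ± 2650.4, SD, n = 3). The groups did not overlap, and NPCTKO libraries 3 and 4 were again above 1 and 2. Its change was 2.42 ± 0.62 on the log2 scale (edgeR adjusted p = 0.0390), and the call was lost without any one library except NPCTKO library 3 (adjusted p up to 0.126 over the alternatives).

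mt-Co1, the catalytic subunit of complex IV, was the most counted mitochondrial gene in every library but was not called. It was read at 7659, 3650.3, 5429 and 5477 CPM in NPCTKO and at 22227, 16776 and 6471 CPM in NSCHRas-shp53. NSCHRas-shp53 library 3 lay below NPCTKO library 1, so the groups overlapped. The fitted difference was 1.45 ± 0.64 on the log2 scale (edgeR adjusted p = 0.168), and of 17 alternatives DESeq2 alone called it (adjusted p = 0.0164).

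The other members of complex IV and the ATP synthase genes, all inside the copied stretch, did not pass the test. mt-Co2, which takes the electrons from cytochrome c, was read at 45.1, 25.4, 19.0 and 12.996 CPM in NPCTKO and at 6.61, 95.4 and 35.6 CPM in NSCHRas-shp53 (edgeR adjusted p = 0.497). mt-Co3, another core subunit, was read at 13.1, 6.86, 3.18 and 1.27 CPM and at 5.90, 27.0 and 6.92 CPM (edgeR adjusted p = 0.396). In both, NSCHRas-shp53 library 1 lay inside or below the NPCTKO range, against its place at the top in most other genes. mt-Atp6, part of the proton channel of the ATP synthase, was read at 76.4, 27.8, 55.7 and 30.8 CPM and at 197, 41.1 and 95.4 CPM (edgeR adjusted p = 0.181). mt-Atp8, which shares 43 bases with it, was read at 8.95, 5.15, 5.57 and 5.62 CPM and at 268, 16.3 and 6.23 CPM (edgeR adjusted p = 0.0529). The mean of mt-Atp8 in NSCHRas-shp53 rested on library 1, and mt-Atp8 and mt-Atp6 did not keep a fixed ratio: 4897 and 3606 raw counts in NSCHRas-shp53 library 1 against 321 and 811 in library 2 and 144 and 2205 in library 3.

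Along the genome, the level per length fell sharply inside the copied stretch in every library. In CPM per kilobase, here without TMM factors, the 6 protein genes inside it were between 6.47 and 86.7 in NPCTKO library 1, 5.30 and 31.2 in library 2, 4.74 and 95.7 in library 3, and 1.15 and 49.9 in library 4. The other 7 protein genes were between 63.1 and 3828, 51.6 and 1802, 287 and 4109, and 224 and 3909 in the same libraries. In NSCHRas-shp53 the genes inside were between 7.47 and 1302, 38.8 and 157, and 10.3 and 163, and the others between 951 and 14279.9, 1986 and 12209, and 814 and 4881. All 6 lay below all 7 others in 5 of 7 libraries, the exceptions being mt-Atp6 in NPCTKO library 1 and mt-Atp8 in NSCHRas-shp53 library 1, each above the lowest gene outside. Of the counts of all protein genes, the 6 genes took 1.53, 1.37, 0.974 and 0.662% in NPCTKO and 1.36, 0.683 and 1.28% in NSCHRas-shp53. The neighbours on either side, mt-Co1 and mt-Nd4, were read at 1802 to 14279.9 and at 71.9 to 2271 CPM per kilobase. The sources do not state how reads that fit 2 places were counted, and its part in these levels was not tested.

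**Figure D3:**
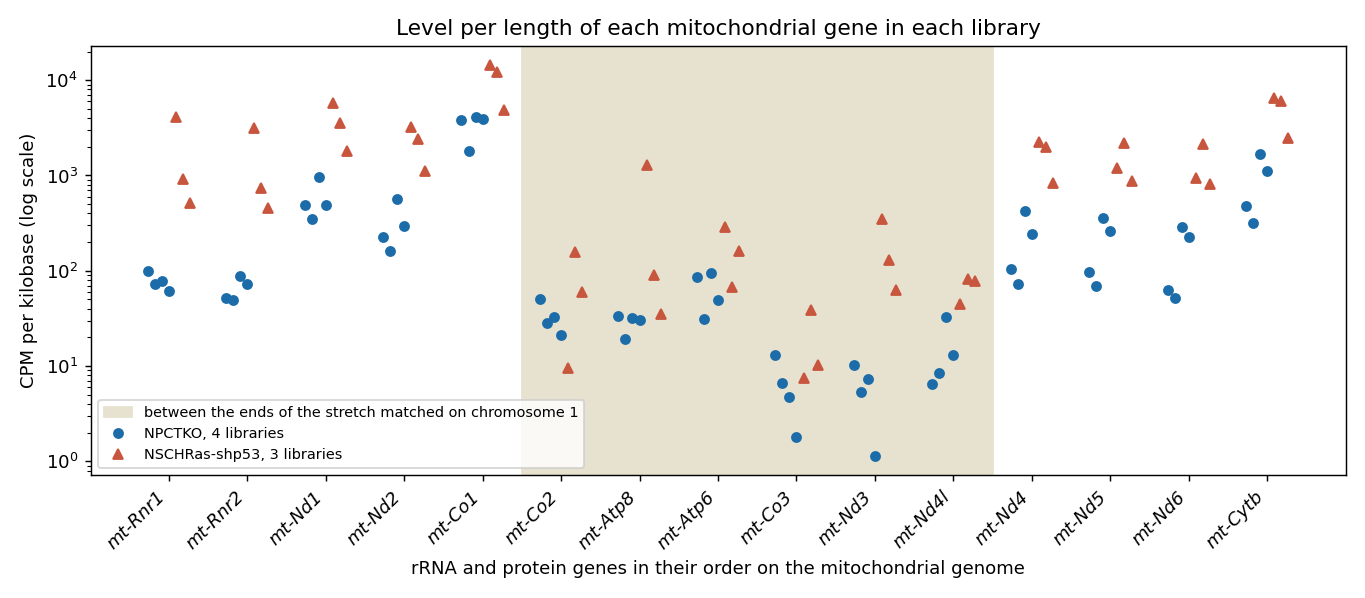
CPM per kilobase of gene (log scale, without TMM factors) of the rRNA and protein genes in their order on the mitochondrial genome, with a point per library. The 6 shaded genes lie wholly between the ends of the stretch matched on chromosome 1 (mt-Atp8 by position only) and were read at 1.15 to 1302, against 51.6 to 14279.9 for the other 7 protein genes.

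Counts assigned to the copies themselves differed between libraries. Gm28661, the copy of mt-Co2, had 1, 0, 2 and 0 counts in NPCTKO and 562, 4 and 1 in NSCHRas-shp53, where mt-Co2 had 121, 1881 and 822. In NSCHRas-shp53 library 1 the copy thus took 82.3% of the 683 counts of the pair, and in every other library at most 0.545%. Gm28438, the copy of mt-Nd3, had 72, 32, 42 and 24 counts in NPCTKO and 15, 8 and 6 in NSCHRas-shp53, where mt-Nd3 had 69, 31, 42 and 6 and 2268, 792 and 436. The copy took 51.1, 50.8, 50.0 and 80.0% of the pair in NPCTKO and 0.657, 1.00 and 1.36% in NSCHRas-shp53. Gm29216, the copy of the end of mt-Co1, had 41, 2, 14 and 9 counts in NPCTKO and 275, 57 and 9 in NSCHRas-shp53. Gm10925, the copy of mt-Atp6, had 3 to 6 counts in NPCTKO and 10, 62 and 5 in NSCHRas-shp53. The remaining copies, Gm28437 of mt-Co3, Gm10222 of mt-Nd4l and Gm28439 of mt-Nd4, had between 0 and 16 counts in any library, and of these Gm28437 took 16 of 77 and 9 of 30 counts of its pair with mt-Co3 in NPCTKO libraries 3 and 4 and at most 5.38% in the others. Summed with its copy, mt-Nd3 had 141, 63, 84 and 30 counts in NPCTKO and 2283, 800 and 442 in NSCHRas-shp53, still without overlap in raw counts. Gm10221 on chromosome 5 had 0 to 12 counts and Gm28440 on chromosome Y had 0. Neither gave a match to a mitochondrial rRNA or protein gene in the alignment used.

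Within the mRNA of each library, mt-Co1 took a larger part in NPCTKO, and mt-Nd1, mt-Nd2, mt-Nd3 and mt-Nd4 took a larger part in NSCHRas-shp53. Of the counts of the 13 protein genes, mt-Co1 took 77.5, 70.4, 56.3 and 66.4% in NPCTKO and 49.2, 47.5 and 45.4% in NSCHRas-shp53 (67.7 ± 8.88, SD, n = 4, and 47.4 ± 1.91, SD, n = 3). The groups did not overlap, and NSCHRas-shp53 libraries agreed within 4 percentage points while NPCTKO libraries did not. mt-Nd4 took 1.88, 2.51, 5.20 and 3.73% in NPCTKO and 6.98, 6.89 and 6.94% in NSCHRas-shp53. mt-Nd1 took 6.16, 8.43, 8.16 and 5.20% and 12.4, 8.59 and 10.4%, and mt-Nd2 took 3.04, 4.25, 5.18 and 3.33% and 7.42, 6.28 and 6.99%. All 3 were apart between the models, mt-Nd1 narrowly and no longer when counts were taken per kilobase. mt-Nd3, counted without its copy, was apart as well, also per kilobase. It took 0.00440 to 0.0470% in NPCTKO and 0.114 to 0.274% in NSCHRas-shp53. mt-Cytb took 7.11, 9.17, 17.1 and 14.1% and 16.7, 17.2 and 16.9%, so NPCTKO library 3 lay with NSCHRas-shp53. mt-Nd5 took 2.32, 3.17, 5.83 and 5.29% and 4.82, 10.1 and 9.53%, with overlap.

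The ratio of mt-Co1 to mt-Cytb puts the same contrast in a single number. There were 10.9, 7.68, 3.29 and 4.71 counts of mt-Co1 per count of mt-Cytb in NPCTKO and 2.94, 2.76 and 2.68 in NSCHRas-shp53. The models did not overlap, but NPCTKO libraries 3 and 4 lay nearer to NSCHRas-shp53 than to NPCTKO library 1. Both genes have a similar GC content (39.9 and 39.1%), below the median of 49.6% of the nuclear genes tested. Both also have nuclear matches over nearly their full length elsewhere, Gm13340 on chromosome 2 at 97.6% identity to mt-Co1 and Gm11410 on chromosome 4 at 92.9% to mt-Cytb, each listed at 0 counts in every library.

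**Figure D4:**
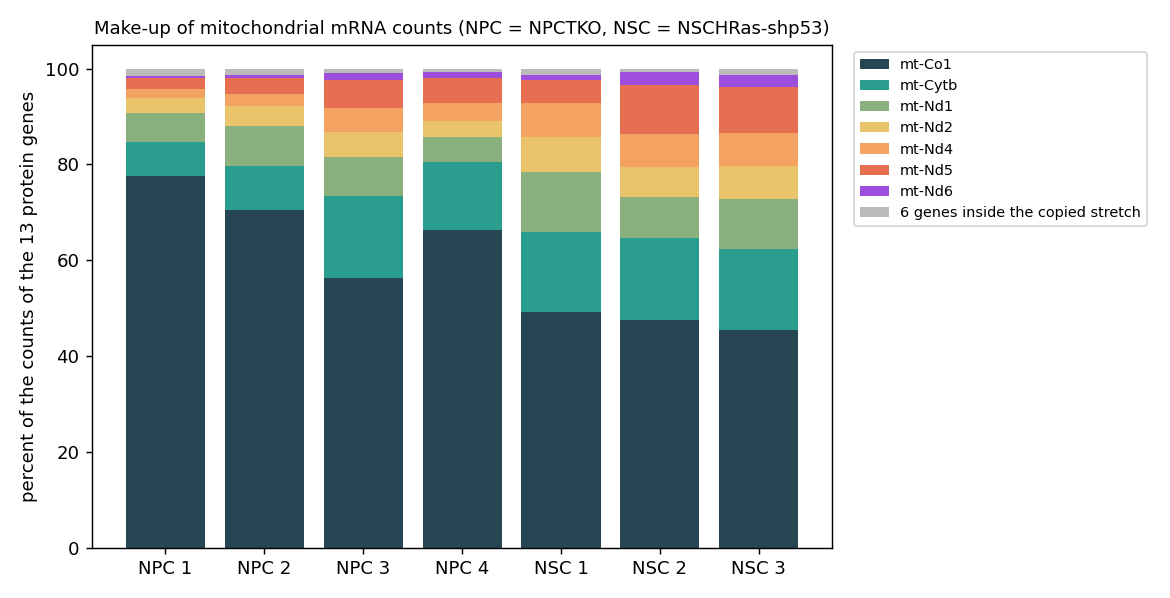
Percent of the counts of the 13 protein genes taken by each of 7 genes and by the 6 genes inside the copied stretch together, a bar per library adding up to all counts of these genes. mt-Co1 takes 56.3 to 77.5% in NPCTKO (n = 4) and 45.4 to 49.2% in NSCHRas-shp53 (n = 3).

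Reads assigned to tRNA genes were few and uneven. Of 22 genes, 3 had no count in any library (mt-Tf, mt-Td and mt-Tk), which at this depth allows up to 0.234 CPM, and the 19 genes other than mt-Tn, mt-Tc and mt-Tp had between 0 and 208 counts in any library. mt-Tc had 254, 103, 83 and 117 raw counts in NPCTKO and 356, 276 and 232 in NSCHRas-shp53. mt-Tp had 188, 112, 131 and 62 and 1357, 278 and 221, and mt-Tn had 57, 36, 55 and 46 and 362, 85 and 146. In CPM mt-Tn alone of the 3 was apart between the models, and none of them passed the test, with log2 differences of 0.67 ± 0.51 for mt-Tc, 2.03 ± 0.73 for mt-Tp and 1.72 ± 0.56 for mt-Tn (edgeR adjusted p = 0.413, 0.106 and 0.0813). NSCHRas-shp53 library 1 was again the highest in all 3.

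The 8 tRNA genes annotated on the light strand took 91.2, 93.4, 78.4 and 86.1% of tRNA counts in NPCTKO and 87.0, 73.9 and 76.4% in NSCHRas-shp53, which overlapped. The library kit did not keep strand, so these counts also hold any RNA read from the opposite strand. They were read after selection of poly(A) RNA, with reads longer than the genes, and are not the amount of tRNA in the cells. The counted tRNA genes also share a position. mt-Tn and mt-Tc face each other across the only gap of 10 or more bases among 36 between neighbouring genes, 32 bases long, and mt-Tp is the last gene before the non-coding control region. The next largest gap was 5 bases, and 21 of 36 neighbours touch or overlap. mt-Tf, on the other side of the control region, had 0 counts.

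Of the other 19 tRNA genes, 9 could be tested and 6 were called, all higher in NSCHRas-shp53, beside 7.77% of all genes (mt-Tg, mt-Tr, mt-Th, mt-Ts2, mt-Te and mt-Ty). All 6 were rare. mt-Tg, the glycine tRNA, had no count in NPCTKO and 2.02, 2.13 and 0.779 CPM in NSCHRas-shp53, at least 8.50-fold higher when the floor of 3 counts per library is set against the mean. mt-Te, the glutamate tRNA next to mt-Nd6 on the light strand, was read at 0.135, 0, 0.313 and 0.846 CPM in NPCTKO and at 1.53, 10.6 and 6.06 CPM in NSCHRas-shp53 (edgeR adjusted p = 0.0360). As for mt-Nd6, its highest library was NSCHRas-shp53 library 2, not library 1. Of the 6, all except mt-Ty passed the filter only through NSCHRas-shp53, where they were higher, so these 6 calls do not describe the 22 genes. Without NSCHRas-shp53 library 2 none of the 6 was called.

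Nuclear genes whose products copy, transcribe, process or regulate mitochondrial DNA and its RNA were taken from a list of 67 symbols, of which 61 were in the table and 59 could be tested. Of these 59, 4 were called lower in NSCHRas-shp53 and 0 higher, beside 5.28% and 7.77% of all genes. Without NPCTKO libraries 3 and 4 together, 14 were called higher and 20 lower, beside 4638 and 4313 of the 16601 genes tested in that fit. An unadjusted p under 0.05 gave 2 higher (Ppargc1a and Nsun3) and 15 lower, beside 4881 of 16091 genes in either direction. DESeq2 gave 2 higher and 11 lower, beside 2024 and 1922 of 16091 genes. Of the 59, 15 had a fitted value above 0 and 44 below, beside 7378 of 16091 genes above 0. The median log2 fold change of the list was -0.38, beside -0.10 over all genes tested. Leaving out NSCHRas-shp53 library 2 or 3 left 0 calls, leaving out library 1 or NPCTKO library 1 or 2 left 1, and leaving out NPCTKO library 3 gave 7. Over all genes, 850 of 16091 were called lower, and 143 of 16637 and 124 of 16521 without NSCHRas-shp53 library 2 or 3. There were 234 of 16738 without NSCHRas-shp53 library 1 and 1208 of 15846 without NPCTKO library 3. Without NPCTKO library 1 or 2 there were 424 of 15924 and 430 of 15981.

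Among the transcription and nucleoid genes none of 11 was called. Polrmt, the mitochondrial RNA polymerase, was read at 74.3, 67.7, 34.9 and 38.4 CPM in NPCTKO and at 18.4, 24.7 and 25.6 CPM in NSCHRas-shp53 (log2 difference -1.24 ± 0.37, edgeR adjusted p = 0.0596). Tfam, which packs the DNA and opens the promoters, was read at 27.4, 27.2, 40.8 and 42.3 CPM and at 24.2, 24.5 and 26.5 CPM (log2 difference -0.46 ± 0.29, edgeR adjusted p = 0.328). For both, all NSCHRas-shp53 libraries were below all NPCTKO libraries, as were those of 14.9% of the genes tested. Tfb2m, the partner of the polymerase at the promoter, was read at 7.74, 9.05, 31.05 and 29.0 CPM and at 19.7, 20.7 and 21.5 CPM, and Mrpl12, a ribosomal protein that also binds the polymerase, at 71.5, 64.9, 21.2 and 27.3 CPM and at 20.9, 13.2 and 12.8 CPM. Neither passed the test (edgeR adjusted p = 0.923 and 0.0776).

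Polg, the catalytic subunit of the mitochondrial DNA polymerase, fell by 1.97 ± 0.47 on the log2 scale (edgeR adjusted p = 0.0304, from 0.000563 to 0.133 over 19 alternatives). It was read at 285, 284, 84.4 and 153 CPM in NPCTKO and at 55.1, 43.0 and 56.3 CPM in NSCHRas-shp53, with libraries 1 and 2 of NPCTKO the highest. Its call was lost without any one NSCHRas-shp53 library and without NPCTKO library 1 or 2. Twnk, the helicase that works with it, was read at 32.5, 36.9, 21.0 and 27.6 CPM and at 11.5, 15.8 and 17.5 CPM (log2 difference -0.98 ± 0.33, edgeR adjusted p = 0.0856).

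Of 33 tested genes of RNA processing, tailing and decay, 2 were called, both lower in NSCHRas-shp53, beside 5.28% of all genes. Elac2, which cuts the 3′ end of tRNAs out of the precursor, was read at 121, 107, 65.0 and 82.0 CPM in NPCTKO and at 32.6, 26.2 and 26.0 CPM in NSCHRas-shp53 and fell by 1.73 ± 0.31 on the log2 scale (edgeR adjusted p = 0.0120). It was called in 17 of 19 alternatives, the exceptions being without NSCHRas-shp53 library 2 or 3 (adjusted p up to 0.0730). Tbrg4, a FASTK family protein that binds mitochondrial RNA, was read at 206, 129, 76.3 and 78.8 CPM and at 41.9, 44.7 and 41.2 CPM and fell by 1.53 ± 0.41 (edgeR adjusted p = 0.0433, up to 0.169 over 17 alternatives), a call lost without NPCTKO library 1 or 2 or any one NSCHRas-shp53 library.

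Lrpprc and Mtpap, which stabilise and tail mitochondrial mRNA, varied widely inside NPCTKO. Lrpprc, which keeps the mRNAs stable, was read at 31.01, 38.1, 100.1 and 109.7 CPM in NPCTKO and at 59.5, 65.6 and 78.2 CPM in NSCHRas-shp53. Mtpap, the poly(A) polymerase, was read at 10.8, 11.6, 56.3 and 40.7 CPM and at 29.6, 30.3 and 28.5 CPM. In both genes, and in Tfb2m, NPCTKO libraries 1 and 2 were below and 3 and 4 above all NSCHRas-shp53 libraries, while Polg, Polrmt, Tbrg4 and Mrpl12 were higher in NPCTKO libraries 1 and 2 than in 3 and 4. Slirp, the partner of Lrpprc, was read at 16.7, 18.1, 19.4 and 16.6 CPM and at 21.8, 22.02 and 11.9 CPM. None of Lrpprc, Mtpap and Slirp was called (edgeR adjusted p = 0.967, 0.987 and 0.913).

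Of 6 regulators of mitochondrial biogenesis, Pprc1 was called lower in NSCHRas-shp53, while Ppargc1a had higher values there that did not pass the test. Pprc1, a growth-induced relative of Ppargc1a, was read at 125, 101, 107 and 123 CPM in NPCTKO and at 59.8, 50.9 and 55.7 CPM in NSCHRas-shp53 and fell by 1.04 ± 0.25 on the log2 scale (edgeR adjusted p = 0.0302, up to 0.138 over 19 alternatives). Its call was lost when any library except NPCTKO library 3 was left out. Ppargc1a, the coactivator best known for raising mitochondrial content, was read at 0.875, 3.43, 4.27 and 3.51 CPM and at 7.32, 11.1 and 11.2 CPM (log2 difference 1.71 ± 0.55, edgeR adjusted p = 0.0762). Neither overlapped between the models, and only Pprc1 passed the test, in 9 of its 19 alternatives as well.

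**Figure D5:**
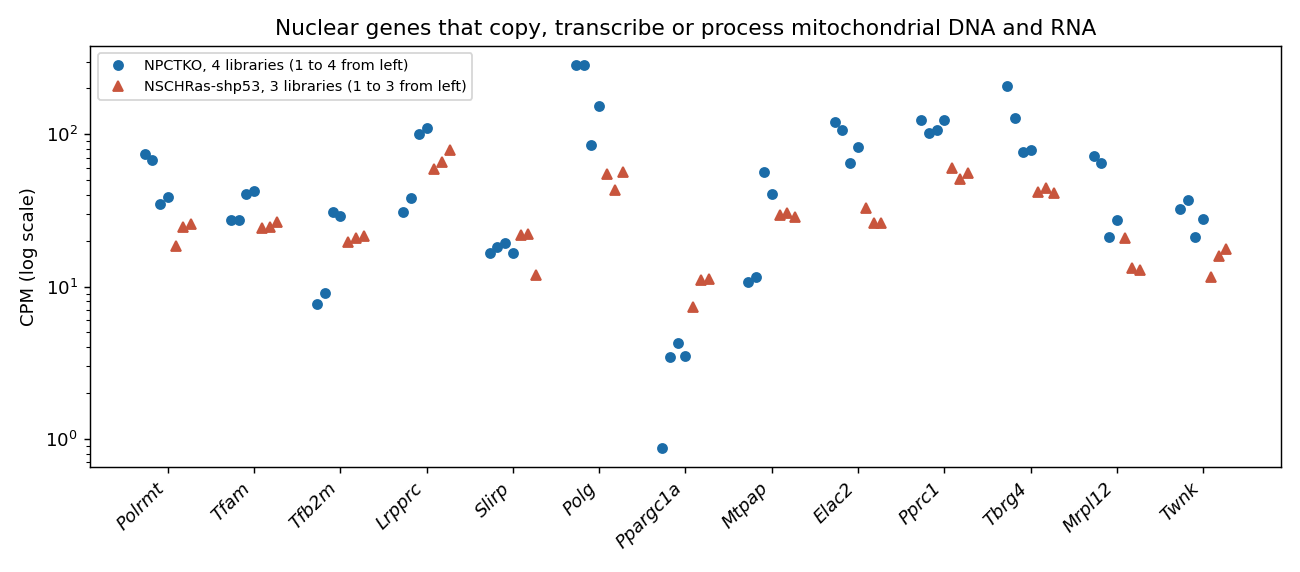
CPM (log scale) of 13 nuclear genes that copy, transcribe, process or regulate mitochondrial DNA and RNA, with a point per library (NPCTKO n = 4, NSCHRas-shp53 n = 3). Polg, Elac2, Tbrg4 and Pprc1 passed the test, all lower in NSCHRas-shp53, and NPCTKO libraries 1 and 2 lie apart from 3 and 4 in Lrpprc, Mtpap, Tfb2m and Polg.

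Among 10834 nuclear genes with a mean of at least 10 CPM, the 10 whose log2(CPM + 1) was most like the log2 of the summed protein gene CPM over the 7 libraries were Sbds, Ell2, Hba-a2, Gadd45a, Cystm1, Zbtb7c, 1110032A03Rik, Pdlim4, Rasl11a and Cdkn2b, with Pearson correlations from 0.940 to 0.982. These values are descriptions over 7 libraries in 2 groups that differ in model and in sorting, and likeness within the groups was not measured. Sbds, a factor of ribosome assembly, came first although it hardly varied, at 57.7, 49.0, 56.4 and 54.6 CPM in NPCTKO and 72.1, 73.6 and 58.0 CPM in NSCHRas-shp53. Hba-a2, an alpha globin gene of red blood cells, was read at 1.01, 0.234, 0.104 and 0 CPM and at 41.4, 39.9 and 4.41 CPM, and the erythroid list took 9.1e-05 to 0.00298% of counts in NPCTKO and 0.00259 to 0.0251% in NSCHRas-shp53 (5 genes, Alas2 at 0). Cdkn2b, a cell cycle inhibitor, was read at 17.3, 14.0, 28.0 and 27.6 CPM and at 149, 124 and 79.7 CPM. In all 3 genes, NSCHRas-shp53 library 3 was the lowest of its group, as it was for the summed protein genes. The genes were chosen for likeness over these same libraries, so this shared order is no separate result. The list of nuclear retained noncoding RNAs took 0.0230 to 0.146% in NPCTKO and 0.192 to 0.324% in NSCHRas-shp53 libraries (5 genes, Kcnq1ot1 at 0), without overlap, and the cytosolic ribosomal protein genes 2.73 to 6.20% and 2.34 to 3.85%, with overlap.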

How the data were processed

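The 4 NPCTKO and 3 NSCHRas-shp53 libraries were made from poly(A)-selected RNA with a kit that does not keep strand. The deposited table of raw counts per gene rests on reads that the authors trimmed with Cutadapt (versions in the methods and in the submitters' processing notes differ) and aligned to mm10 by TopHat 2.1.1. The counting program was not given in the sources used here. Values in FPKM deposited by the authors came from Cufflinks 2.2.1 and hold 0 rows of mitochondrial genes, so they served for nuclear genes only.

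Counts were tested with edgeR 4.0.16 (quasi-likelihood, TMM, filterByExpr, Benjamini-Hochberg over all 16091 genes) in R 4.3.3, after the test was checked on simulated data. In that check the test called 19 of 100 changes of 4-fold, 90 of 100 changes of 16-fold and 4 of 15891 genes left unchanged. The absence of a call therefore does not show that a gene is equal between the models. A standard error is the log2 fold change over the root of its F. Shares and compositions are descriptions. The copies were a fixed list of pseudogenes, aligned locally to the mitochondrial rRNA and protein genes with Biopython 1.88. Other nuclear matches of at least 60 bases were sought with blastn 2.17.0 in 141730 annotated nuclear transcripts. Unannotated copies were not searched for. Intervals are exact binomial and cover counting error. All 37 rows have the coordinates of GENCODE vM21.

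The members and lists were chosen with earlier results of these data known. All protein and rRNA genes are named, tRNA genes with a mean of at least 100 counts, 8 fixed nuclear genes and the 5 others with the smallest p, the 10 most alike genes, and the copies. Other tRNA genes and Nsun3 were named after their values were seen. Alternatives were DESeq2 1.42.0, other size factors and filters, limma 3.58.1 on FPKM values with pseudocounts of 1 and 0.1, a replicate block, other denominators, and leaving out each library, with further ones added after the data were seen.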

Additional observations from a re-analysis of the deposited data

Results flagged for a closer look

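Within the 4 NPCTKO libraries, 37 values (CPM of the named genes, class shares and ratios) were screened for a library far from the other 3, a limit that chance passes in about 1 of 20 groups. Of these, 2 passed, both in NPCTKO library 1, where mt-Atp8 was at 8.95 CPM against 5.15 to 5.62 in the others and mt-Tn was at 3.83 CPM against 2.78 to 2.87. Groups of 3 were not screened, so the high values of NSCHRas-shp53 library 1 in rRNA and mt-Atp8 are given above as values only.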

How the results depend on the processing

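The count of mitochondrial genes called higher in NSCHRas-shp53 (16) was between 13 and 21 with DESeq2, other size factors, no TMM factors, mitochondrial genes left out of the totals, no filter and a mean CPM of at least 1, and between 3 and 16 when a library was left out. It was 8 with the GC trend removed, an alternative added after the data were seen, as were those that leave out 2 NPCTKO libraries together. No alternative called a mitochondrial gene lower. Dropping the TMM factors moved the median of all genes from -0.10 to 0.09 on the log2 scale. Over all genes, 1251 were called higher and 850 lower, against 2024 and 1922 with DESeq2 and 4638 and 4313 without NPCTKO libraries 3 and 4. The replicate numbers do not pair the libraries (correlations of same-numbered deviations 0.27, -0.19 and 0.18). With the replicate block 3 mitochondrial genes were called higher (mt-Rnr1, mt-Rnr2 and mt-Nd3) and 1 gene of the nuclear list lower. Over all genes, that fit called 742 of 15872 higher and 327 lower.

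Genes of the nuclear list called lower (4) were 11 with DESeq2, 0 to 7 when a library was left out, 8 without NPCTKO libraries 1 and 2 and 20 without NPCTKO libraries 3 and 4. Over all genes, those called lower were 124 to 1208 when a library was left out and 1231 without NPCTKO libraries 1 and 2. Genes of the nuclear list called higher (0) were 2 with DESeq2 and 14 without NPCTKO libraries 3 and 4. The mean protein share was 0.234% in NPCTKO and 1.49% in NSCHRas-shp53 libraries when only the protein genes outside the copied stretch (mt-Co1 and mt-Nd4 left out too) were summed. The mean part of mt-Co1 in NSCHRas-shp53 was 38.6% per kilobase and 51.5% among mt-Co1 and those genes. Shares over other denominators moved by less than 1 SD.

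Of 455 fits of single mitochondrial genes under alternatives, 363 kept direction and side of the threshold, 72 lost a call, 12 gained one and 8 turned the sign of a gene that was not called. With the GC trend removed, mt-Tc was at -0.82, mt-Co2 at -0.53, mt-Atp6 at -0.029, mt-Co3 at -0.32 and mt-Tw at -0.16. mt-Co2 was at -0.28 to 1.40 and mt-Tw at -0.10 to 0.71 when a library was left out, and mt-Tw at -0.16 without NPCTKO libraries 1 and 2. Of the 13 named nuclear genes, 4 near 0 changed sign. Tfb2m was at -0.14 to 0.43 when a library was left out, at -0.51 without NPCTKO libraries 1 and 2 and at -0.11 with the GC trend removed. Lrpprc was at 0.038 without TMM factors, 0.17 and 0.19 with limma on log2(FPKM + 1) and log2(FPKM + 0.1), 0.46 with the replicate block, -0.26 to 0.26 when a library was left out and 0.96 without NPCTKO libraries 3 and 4. Slirp was at -0.055 and -0.056 with limma, -0.013 with the replicate block, -0.066 to 0.32 when a library was left out and -0.38 with the GC trend removed. Mtpap was at 0.011 without TMM factors, 0.65 with the replicate block, -0.28 to 0.48 when a library was left out and 1.38 without NPCTKO libraries 3 and 4. The causes were not tested. The alternatives on FPKM values were not run for mitochondrial genes, which have no row there. Of the tRNA genes, 10 had too few counts to be tested.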
